A study of Mus musculus with 6 samples.

Results

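The metabotropic glutamate receptor genes described here were Grm2, Grm3, Grm4, Grm5, Grm6, Grm7 and Grm8. They were chosen by gene symbol and make up 7 of the 23282 genes in the deposited count tables. Of these genes, 6 had enough counts to be compared between diets, and Grm6 had a count of 0 in all 6 libraries. The libraries hold RNA of forebrain hemispheres, without olfactory bulbs and cerebellum, from WT C57BL/6J male mice aged 8 to 10 weeks. Of these libraries, 3 came from mice on a normal chow diet (NCD) and 3 from mice on a high-fat diet (HFD, 60% of calories as fat), each fed for 10 days. The labels number the replicates within each diet but do not state whether each library came from its own animal, so the tests measure the spread between these libraries. QuantSeq 3′ libraries start from the poly(A) end of each mRNA, and the files give a count per gene.

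Metabotropic glutamate receptors are G protein-coupled receptors that sense glutamate and adjust the strength of synapses more slowly than the ion channel receptors. Group I receptors act through Gq and phospholipase C, mainly at postsynaptic sites, and are represented here by Grm5. Group II (Grm2 and Grm3) and group III (Grm4, Grm6, Grm7 and Grm8) act through Gi/o proteins, which lower cyclic AMP, and mostly sit on nerve terminals, where they restrain transmitter release. Grm3 is also found in astrocytes. Grm6 is known from ON bipolar cells of the retina, where it passes on the signal of photoreceptors. In these libraries Grm5 had the highest level and Grm6 was not counted. Of the 6 genes compared, 0 differed between the diets after adjustment, and Grm4 had the lowest log2 fold change, which rested in large part on HFD replicate 3.

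On GRCm38, Grm5 (ENSMUSG00000049583.15) lies on chromosome 7 from 87584168 to 88134907. Grm2 (ENSMUSG00000023192.12) lies on chromosome 9 from 106643095 to 106656082. Its last 470 exon bases at the 3′ end are shared with the antisense gene Gm28111, in the part of the transcript that QuantSeq reads, and the use of strand in the counting was not stated, so reads of both could not be told apart. Grm3 (ENSMUSG00000003974.6) lies on chromosome 5 from 9485541 to 9725170 and Grm4 (ENSMUSG00000063239.17) on chromosome 17 from 27422387 to 27521403. Chromosome 6 carries both Grm7 (ENSMUSG00000056755.13, from 110645581 to 111567230) and Grm8 (ENSMUSG00000024211.15, from 27275119 to 28135178). Grm6 (ENSMUSG00000000617.14) lies on chromosome 11 from 50850685 to 50866208. Antisense genes also overlap exons of Grm7 (130 bases, Gm20387) and Grm6 (599 bases, Gm12660), and the microRNA gene Mir592 lies within an exon of Grm8. No exon of another gene overlapped those of Grm3, Grm4 or Grm5 in GENCODE vM21.

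The RefSeq promoter table holds windows for 5 of the 7 genes, Grm2, Grm3, Grm6, Grm7 and Grm8. The windows of Grm2, which was counted in every library, and of Grm6, which was counted in none, are shown. Grm3, Grm7 and Grm8 were also counted in every library. Each window runs from 250 bases before to 50 bases after the transcript start, is written 5′ to 3′ on the gene's strand from build GRCm38.p6, and has each CG dinucleotide in capitals. The Grm2 window is chr9:106656060-106656359 on the minus strand and the Grm6 window is chr11:50850435-50850734 on the plus strand.
Grm2: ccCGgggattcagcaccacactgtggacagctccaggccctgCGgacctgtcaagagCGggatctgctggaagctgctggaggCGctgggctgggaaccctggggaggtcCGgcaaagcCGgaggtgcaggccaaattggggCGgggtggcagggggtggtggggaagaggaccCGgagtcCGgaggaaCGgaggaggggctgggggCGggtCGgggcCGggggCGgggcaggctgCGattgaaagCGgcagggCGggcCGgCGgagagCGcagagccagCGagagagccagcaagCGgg
Grm6: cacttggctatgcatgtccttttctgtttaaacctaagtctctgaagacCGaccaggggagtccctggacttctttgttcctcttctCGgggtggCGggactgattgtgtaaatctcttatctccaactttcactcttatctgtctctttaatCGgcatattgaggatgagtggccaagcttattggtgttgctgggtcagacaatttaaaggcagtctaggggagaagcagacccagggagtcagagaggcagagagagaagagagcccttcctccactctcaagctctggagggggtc
The Grm2 window held 22 CG dinucleotides and 72.0% G and C, and the Grm6 window held 4 and 49.7%. At least 22 were found in 23.1% of all 32851 windows in the table and at least 4 in 68.6%, with a median of 7. The GC box, searched as GGGCGG on both strands and overlapping the CG dinucleotides marked, occurred 4 times in the Grm2 window and 0 times in the Grm6 window, and in 35.7% of all windows. Among the other windows, those of Grm8 held 33, 10 and 2 CG dinucleotides, that of Grm3 held 11, and those of Grm7 held 10 and 15. The GC box occurred 2 times in the Grm3 window and 1 time in each Grm7 window. In the Grm8 windows, in the same order, it occurred 1, 0 and 0 times. The TATA box, searched as TATAAA on both strands, was in 0 of the 8 windows of these genes and in 13.6% of all windows. These letters describe the windows and were not tested against the counts.

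The total count was between 6842785 and 9689372 per library, and libraries of the same diet differed beyond sampling noise (chi-square per degree of freedom from 3.47 to 16.0). The general neuronal markers Snap25, Syt1, Rbfox3, Map2 and Stmn2 together reached 5450 to 5760 CPM, counts per 1000000 of the TMM-scaled library total, in every library. Gabra6, which marks cerebellar granule cells, had a single count in HFD replicate 2 and 0 elsewhere. Markers of the olfactory bulb (4 of 4 listed genes in the files, summed) ran from 5.18 to 47.7 CPM under NCD and from 3.44 to 20.1 CPM under HFD, with NCD replicate 2 highest. HFD replicate 3 stood apart most, as in each pair that held it the chi-square per degree of freedom was at least 14.1. In bulk RNA, fewer cells of a type and less RNA per cell cannot be told apart.

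Grm5 encodes mGlu5, a group I receptor of the forebrain that scaffolds of the Homer family tie to intracellular calcium stores. It was by far the most counted of these genes, with 2933, 3160 and 3081 counts across NCD replicates 1, 2 and 3 and 2464, 2996 and 2493 across HFD replicates 1, 2 and 3. This corresponded to 362, 341 and 325 CPM under NCD and 355, 327 and 343 CPM under HFD. The HFD values lay within the range of the NCD values, and only 2.93% of the genes tested had a higher mean CPM. The mean was 342 ± 18.8 CPM (SD, n = 3) under NCD and 342 ± 13.7 CPM (SD, n = 3) under HFD. The log2 fold change of HFD over NCD was -0.0038 (SE, the standard error, 0.10, 95% interval -0.21 to 0.20, adjusted p = 0.999 from edgeR quasi-likelihood F-tests, adjusted after Benjamini and Hochberg). As a fold, the interval ran from 0.865 to 1.15.

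The group II genes differed from each other in level and in how they varied. Grm2, which encodes the presynaptic autoreceptor mGlu2, had 155, 222 and 170 counts across NCD libraries and 152, 170 and 106 across HFD libraries, or 19.1, 23.9 and 17.9 against 21.9, 18.6 and 14.6 CPM. The highest value was NCD replicate 2 and the lowest HFD replicate 3, and the other libraries of both diets lay between 17.9 and 21.9 CPM. The log2 fold change of Grm2 was -0.15 (SE 0.17, 95% interval -0.52 to 0.22, adjusted p = 0.979 from the same test), and it was -0.01 without HFD replicate 3. The olfactory bulb markers were also highest in NCD replicate 2 and lowest in HFD replicate 3, and their part in the values of Grm2 was not tested. Grm3, which encodes mGlu3 of neurons and astrocytes, was the only one of the 6 genes with a log2 fold change above 0. It had 615, 642 and 563 counts under NCD and 539, 643 and 593 under HFD, or 75.9, 69.3 and 59.3 against 77.6, 70.3 and 81.5 CPM. HFD replicate 3 was the highest and NCD replicate 3 the lowest, and the groups overlapped. Its log2 fold change was 0.17 (SE 0.12, 95% interval -0.09 to 0.42, unadjusted p = 0.182, adjusted p = 0.979, from the same test), and 0.07 without NCD replicate 3. The summed astrocyte markers (7 of 7 listed genes) reached their highest value in HFD replicate 3, at 2530 CPM against 2280 to 2390 CPM in the other libraries, and their part in the value of Grm3 was not tested. Of the list, Aldoc and S100b were highest in that library, with 1120 and 558 CPM, whereas Slc1a3 was lowest there with 549 CPM and the other genes lay between.

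Of the group III genes, Grm4 encodes mGlu4, a presynaptic receptor best known from the cerebellum and also present in forebrain terminals. It had 394, 472 and 576 counts across NCD libraries and 351, 412 and 186 across HFD libraries. In CPM these were 48.6, 50.9 and 60.7 under NCD and 50.5, 45.0 and 25.6 under HFD. HFD replicate 1 lay between the NCD values, so the groups overlapped, and HFD replicate 3 was far below every other library. The mean was 53.4 ± 6.40 CPM (SD, n = 3) under NCD and 40.4 ± 13.1 CPM (SD, n = 3) under HFD. Grm4 had a log2 fold change of -0.40 (SE 0.19, 95% interval -0.80 to -0.01, unadjusted p = 0.0447, adjusted p = 0.979, from edgeR quasi-likelihood F-tests, adjusted after Benjamini and Hochberg). Without HFD replicate 3 the log2 fold change was -0.17 at an unadjusted p of 0.202 in the same test, and without NCD replicate 3 it was -0.30 at an unadjusted p of 0.176. Without NCD replicate 2 the unadjusted p was 0.0557, and it was 0.0536 with library size alone, 0.0542 with robust estimation and 0.061 with the replicate number as a block. The unadjusted p of Grm4 was under 0.05 in 10 of the 16 fits run, and its adjusted p was between 0.687 and 1. Its lowest unadjusted p-values, both from edgeR, were 0.00425 without a filter and 0.00755 without HFD replicate 1.

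Grm7 encodes mGlu7, the receptor of the active zone that responds only to high glutamate. It had 343, 405 and 442 counts under NCD and 344, 373 and 258 under HFD, or 42.3, 43.7 and 46.6 against 49.5, 40.8 and 35.5 CPM. The NCD values lay close together, while the HFD values held both the highest and the lowest of the 6 libraries. Its log2 fold change was -0.08 (SE 0.13, 95% interval -0.36 to 0.21, adjusted p = 0.979 from the same test), and it was 0.02 without HFD replicate 3. Grm8, which encodes the presynaptic receptor mGlu8, had 114, 175 and 169 counts under NCD and 93, 145 and 99 under HFD, or 14.1, 18.9 and 17.8 against 13.4, 15.8 and 13.6 CPM. NCD replicate 1 lay among the HFD values and the other NCD libraries lay above them. The log2 fold change of Grm8 was -0.24 (SE 0.17, 95% interval -0.60 to 0.12, unadjusted p = 0.172, adjusted p = 0.979, from the same test), and from -0.36 to -0.16 with each library left out in turn.

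Grm6 was listed at 0 in all libraries. With 3 counts taken as the limit that a count of 0 allows, its level was at most between 0.316 and 0.432 CPM per library, a limit that covers counting error only. Other genes of the ON bipolar cell cascade were also rarely counted. Lrit3 had a count of 0 in every library, and the channel gene Trpm1 had 2 counts in NCD replicate 2 and 0 elsewhere. Nyx and Gpr179 had at most 5 and 6 counts in a library. The list of 8 genes also holds Gng13, Pcp2 and Rgs11, which neurons outside the retina use, and only these 3 had enough counts to be tested.

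**Figure D1:**
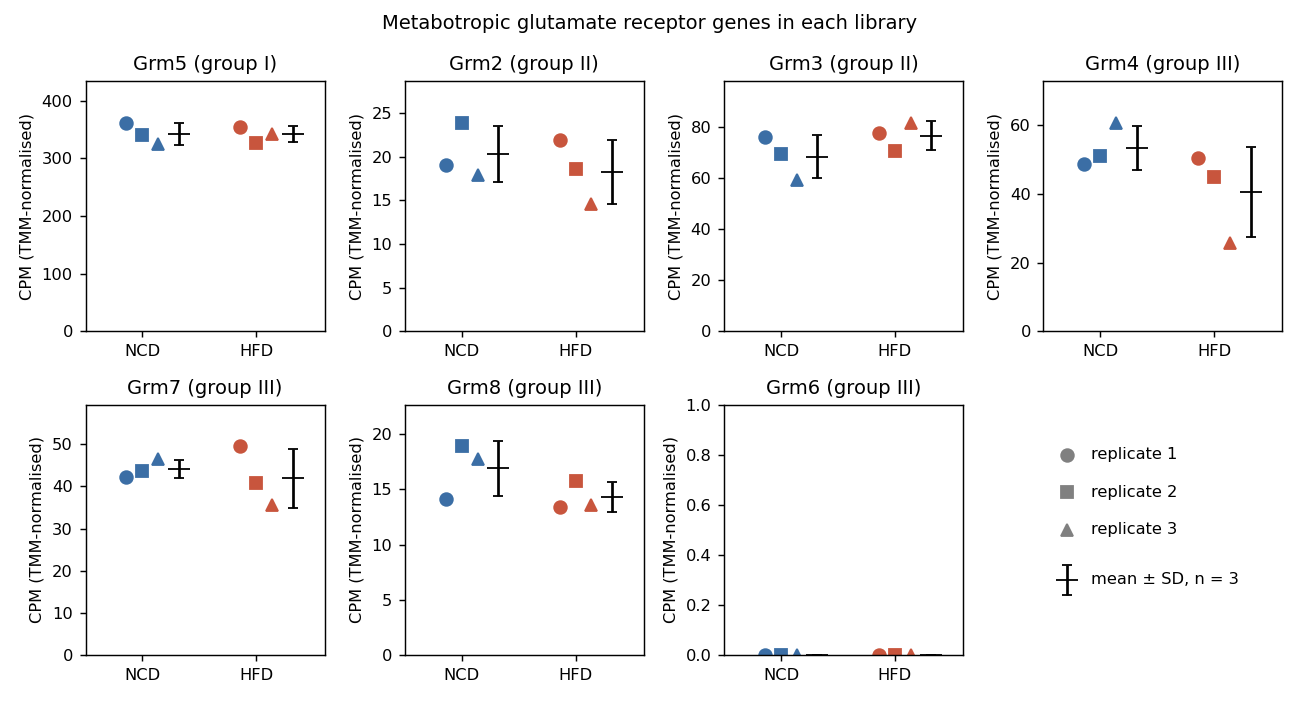
CPM after TMM scaling (vertical axes, from 0) of each receptor gene in the 3 NCD (blue) and 3 HFD (red) libraries, with a marker shape per replicate and the mean ± SD (n = 3) in black. The diets overlap for each gene counted, Grm4 is lowest in HFD replicate 3 at 25.6 CPM, and Grm6 is at 0 throughout.

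After adjustment over the 13771 genes tested, 0 of 6 receptor genes had a p under 0.05 in the edgeR quasi-likelihood test, as did 0% of all genes. The count was also 0 of 6 with DESeq2, where 2 of all genes passed, and with limma after quantile normalization. At an unadjusted p under 0.05 there was 1 of 6, namely Grm4, where 3.68% of all genes tested passed. The libraries of the diets did not overlap for 0 of the 6 genes and for 8.81% of all genes. The log2 fold change was under 0 for 5 of the 6 genes and for 50.6% of all genes. Its median over the 6 was -0.11, and -0.01 without HFD replicate 3, against -0.0025 over all genes tested. For 4 genes, Grm2, Grm3, Grm5 and Grm7, the 95% interval lay within a 1.5-fold change in both directions. A fall of that size was within the intervals of Grm4, which reached down to 0.576-fold, and of Grm8, which reached 0.658-fold.

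**Figure D2:**
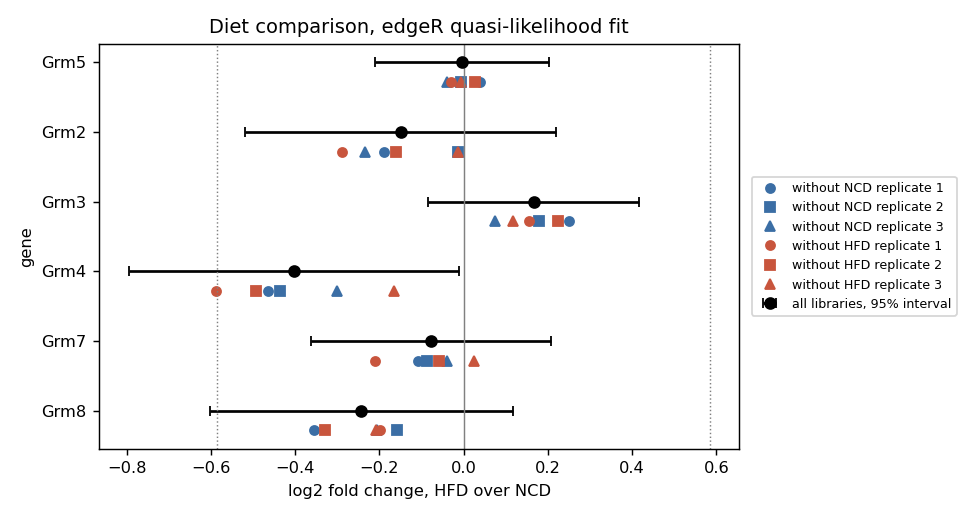
Log2 fold change of HFD over NCD (horizontal axis) for the 6 receptor genes tested, with the 95% interval of the edgeR quasi-likelihood fit in black and, below it, the values with each library left out in turn (blue for an NCD library, red for an HFD library). The dotted lines mark a 1.5-fold change. The interval of Grm4 runs from -0.80 to -0.01 and its value is -0.17 without HFD replicate 3.

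By level, the genes kept the same order with and without scaling to gene length. In CPM per kilobase of annotated exon, Grm5 had 33.4 ± 1.44 and Grm3 23.7 ± 2.58 (SD over the 6 libraries), and every Grm5 value lay above every Grm3 value. Grm4 with 7.85 ± 1.95 and Grm7 with 7.32 ± 0.825 CPM per kilobase followed, and these neighbours did not differ beyond their spread, as Grm7 exceeded Grm4 in HFD replicate 3. Grm2 had 3.95 ± 0.666 and Grm8 1.58 ± 0.234 CPM per kilobase, each apart from its neighbours. A library primed at the poly(A) tail gives about a single fragment per transcript whatever its length, so the order was also taken in plain CPM. On that scale Grm5 was 4.73 times Grm3 rather than 1.41 times. The ranges of Grm3 and Grm4, of Grm4 and Grm7, and of Grm2 and Grm8 overlapped in CPM. The exon model of Grm3 was the shortest, with 3.05 kilobases from a single annotated transcript, and that of Grm5 the longest, with 10.25 kilobases.

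**Figure D3:**
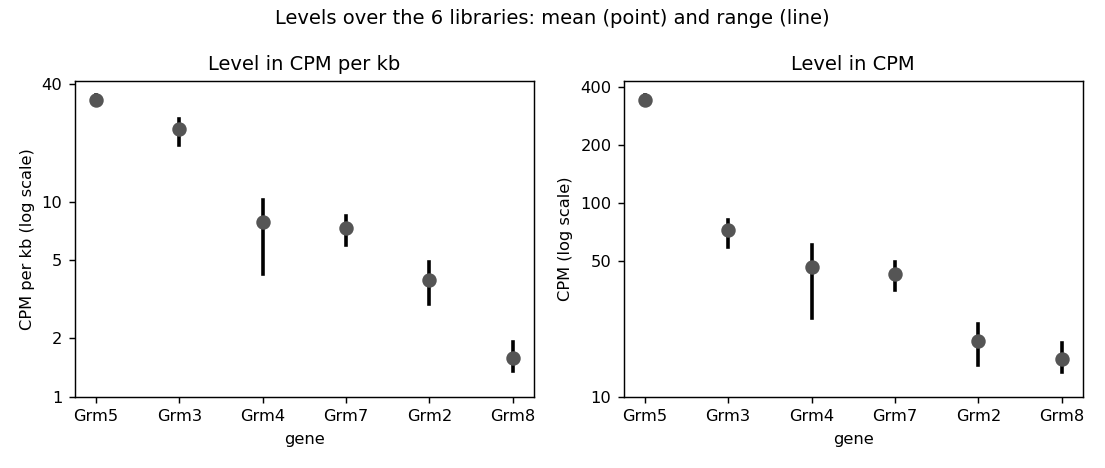
Mean (point) and range (line) over the 6 libraries of the receptor genes that were counted, in CPM per kilobase of exon (left) and in CPM (right), both on log axes. Grm5 is highest on both scales, and the ranges of Grm4 and Grm7 overlap on both.

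As a share of the summed CPM of the 7 genes, Grm5 took from 61.6% to 64.4% across NCD libraries and from 62.5% to 66.7% across HFD libraries. Group II took from 14.7% to 17.0% under NCD and from 17.2% to 18.7% under HFD. These shares did not overlap, but a share also moves with the other genes in the sum. The summed CPM of group II did overlap, with 77.2 to 95 CPM under NCD and 88.8 to 99.5 CPM under HFD. Group III took 18.7%, 20.7% and 23.7% across NCD replicates 1, 2 and 3 and 20%, 19.6% and 14.5% across HFD replicates 1, 2 and 3. Group III was thus lowest in HFD replicate 3, with 74.7 CPM against 102 to 125 CPM in the other libraries. Grm5 and group II held 343 and 96.1 CPM in that library, within their range over the others.

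Grm4, Grm2 and Grm7 were each lowest in HFD replicate 3, which was the lowest library for 27.1% of all genes tested. Relative to the mean of the 6 libraries, Grm4 was -0.87, Grm2 -0.41 and Grm7 -0.28 on the log2 scale there. Grm8 was at -0.20, Grm5 at 0.00 and Grm3 at 0.17. The summed markers of several regions and cell types were also lowest in that library. The midbrain markers (6 of 6 listed genes, Th, Slc6a3, Foxa1, Foxa2, En1 and Pitx3) summed to 8.66 CPM in HFD replicate 3, against 26.0 and 26.5 CPM in the other HFD libraries and 24.7 to 35.1 CPM under NCD. Th, the enzyme that defines dopamine neurons, had 26 counts in HFD replicate 3 and 60 to 189 in the others, and Foxa2 was at 0 there against 4 to 17 counts. Foxa1 and Pitx3 had at most 5 counts in any library. The excitatory neuron markers (6 of 6) summed to 2030 CPM in that library and to 2300 to 2680 CPM in the others, with none at 0. Camk2a carried this fall, with 1260 CPM against 1590 to 1910 CPM, while Neurod6 was highest in that library with 155 CPM, and 3 of the 6 genes were lowest there. The cerebellar list (6 of 6), of which Cbln1 and Zic1 carried most counts and Pcp2 is shared with the ON bipolar list, summed to 55.3 CPM there, against 79.5 and 89.3 CPM in the other HFD libraries and 70.0 to 96.0 CPM under NCD. Only 2 of the 6 genes were lowest in HFD replicate 3, namely Cbln1 with 12.6 CPM and Zic1 with 24.2 CPM. Cbln3 and Fat2 had at most 9 and 6 counts in any library. Pcp2 did not fall there, with 17.9 CPM against 9.9 to 20.6 CPM in the other libraries. Gabra6 was at 0 in every library but HFD replicate 2, so its 0 does not set HFD replicate 3 apart. The thalamic markers (5 of 5) ran from 531 to 655 CPM under NCD and from 519 to 610 CPM under HFD, with HFD replicate 3 lowest and none at 0. Tcf7l2 and Prkcd were the only 2 of the 5 genes lowest there, with 111 and 36 CPM. Rora had 261 CPM there, against 242 to 283 CPM in the other libraries. The part of tissue composition in the value of Grm4 was not tested.

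**Figure D4:**
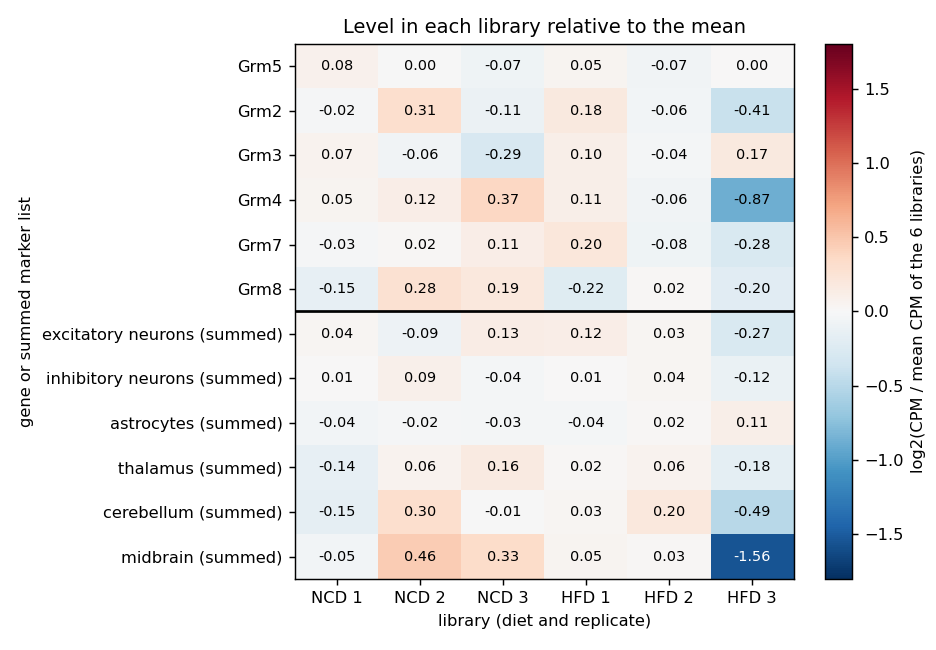
Log2 ratio of each library's CPM to the mean of the 6 libraries (colour and printed value) for the 6 receptor genes counted (above the line) and for the summed CPM of marker lists (below). In HFD replicate 3, Grm4 is at -0.87 and the midbrain markers at -1.56, while Grm5 is at 0.00.

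Spread over the 6 libraries of both diets exceeded counting noise, most for Grm4. The coefficient of variation over the 6 libraries was 4.30% for Grm5 and 24.9% for Grm4, where their counts alone give 1.88% and 5.33%. For Grm8, the least counted, it was 14.9% against 8.96% from counting. Within a diet, Grm7 varied by 4.89% under NCD and 16.9% under HFD, where its counts alone give 5.34%, so its NCD spread did not exceed counting noise. Across the 6 libraries, in which both genes share the same depths and tissue pieces, the log2 CPM of Grm4 and Grm7 had a Pearson's r of 0.87 and that of Grm3 and Grm8 an r of -0.82, given as a description. The genes most like Grm4 over the 6 libraries were Sema5a (r = 0.9968), which encodes a semaphorin, and Foxk1 (r = 0.9958), a forkhead factor. For Grm5 they were Arhgdib (r = 0.979) and Usp16 (r = 0.9784), for Grm2 Crispld2 (r = 0.992) and Gabrq (r = 0.9919), and for Grm3 Cml3 (r = 0.9901) and Ppp1r35 (r = 0.9854). For Grm7 they were 4932438A13Rik (r = 0.9948) and 2510039O18Rik (r = 0.9941), and for Grm8 P2ry13 (r = 0.9935) and Lcp1 (r = 0.9851). These are the highest of 13771 values for each receptor gene, and 245 genes had an r over 0.95 with Grm4 and 12 with Grm5. Grm4 and Grm7 were both lowest in HFD replicate 3, and a single outlying library weighs heavily in an r over 6 libraries. The part of HFD replicate 3 in these values was not tested.

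Partners and scaffolds of the receptors were described from a list of 14 genes, of which 14 were tested. The list is broad and takes in Siah1a and Fmr1, which are not scaffolds. At an unadjusted p under 0.05, 1 was higher and 0 were lower under HFD, and 0 passed after adjustment over all genes (the edgeR quasi-likelihood test), where 3.68% of all genes passed the unadjusted threshold. The median log2 fold change was -0.09. The gene past the unadjusted threshold was Homer1, whose long forms link mGlu5 to calcium release channels and whose short form, induced by activity, breaks that link. Homer1 had 136, 136 and 125 CPM under NCD and 148, 141 and 184 CPM under HFD. All HFD libraries of Homer1 lay above the NCD libraries, a separation in either direction seen for 8.81% of all genes, and HFD replicate 3 stood above the rest. Its log2 fold change was 0.26 (SE 0.12, unadjusted p = 0.0444, adjusted p = 0.979, from the same test), and 0.13 at an unadjusted p of 0.17 without HFD replicate 3. Without NCD replicates 1, 2 and 3 the unadjusted p of Homer1 was 0.073, 0.0691 and 0.118, also in edgeR. The unadjusted p of Homer1 was under 0.05 in 10 of 16 fits, and it was 0.0777 with the replicate block. A count per gene does not separate the long and short forms. Ncdn, which encodes the mGlu5-binding protein neurochondrin, was the most counted of the list, with 629, 724 and 676 CPM under NCD and 718, 658 and 412 CPM under HFD. Its log2 fold change of -0.18 (SE 0.15) was 0.02 without HFD replicate 3. For Elfn1 and Elfn2, which bind group III receptors across the synapse, it was -0.22 (SE 0.16) and -0.14 (SE 0.15).

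Of the Gq arm used by group I, 15 of 18 listed genes were tested. In either direction, 0 had an unadjusted p under 0.05, where 3.68% of all genes tested passed. At that share, 0 in a list this short does not set the arm apart from all genes. The median log2 fold change of the 15 genes was -0.0061. Prkcb, a protein kinase C gene and the most counted of the list, had 2180 ± 166 CPM (SD, n = 3) under NCD and 2050 ± 92.4 CPM (SD, n = 3) under HFD, and its log2 fold change was -0.08 (SE 0.09). Gnaq, the Gq alpha subunit, had a log2 fold change of 0.0041 (SE 0.10). Of the Gi/o arm with adenylyl cyclases and GIRK channels, 21 of 23 listed genes were tested, and the median was -0.07. Of these, 0 had an unadjusted p under 0.05, beside 3.68% of all genes tested. Gnao1, the Go alpha subunit, had 1270 ± 61.2 CPM (SD, n = 3) under NCD and 1160 ± 186 CPM (SD, n = 3) under HFD, lowest in HFD replicate 3 with 951 CPM, and it shares 284 exon bases with an antisense gene. Its log2 fold change was -0.12 (SE 0.11), and 0.0039 without HFD replicate 3.

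Of the receptor kinases, arrestins and RGS proteins, which end the signal, 15 of 15 listed genes were tested, with a median log2 fold change of -0.05. Of these, 0 had an unadjusted p under 0.05, beside 3.68% of all genes tested. Rgs4, which speeds the shut-off of Gq and Gi/o proteins, had 603 ± 47.6 CPM (SD, n = 3) under NCD and 592 ± 77.7 CPM (SD, n = 3) under HFD. Beside 3.68% of all genes, 0 of the 3 genes tested of the ON bipolar cell list had an unadjusted p under 0.05. Their median log2 fold change was 0.13, which was that of Gng13, a G protein gamma subunit with 41.5 ± 6.90 CPM (SD, n = 3) under NCD and 45.4 ± 6.32 CPM (SD, n = 3) under HFD that shares 399 exon bases with Chtf18 on the other strand. Rgs11, which is also in the list of RGS proteins, went the other way, at -0.77 (SE 0.36, unadjusted p = 0.0512, adjusted p = 0.979, from the edgeR quasi-likelihood test). It had 1.37 CPM in HFD replicate 3 and 4.04 to 7.27 CPM in the other libraries. Of the 8 glutamate transporter genes, which carry the transmitter that the receptors sense across membranes, 8 were tested. They had a median log2 fold change of -0.04. At an unadjusted p under 0.05, 1 was lower under HFD (3.68% of all genes in either direction). This was Slc1a1, the neuronal transporter EAAC1, with 57.2, 57.3 and 55.0 CPM under NCD and 45.2, 49.5 and 44.1 CPM under HFD. The diets did not overlap for Slc1a1, as for 8.81% of all genes, and it came to -0.29 on the log2 scale (SE 0.11, unadjusted p = 0.0223, adjusted p = 0.979, from the edgeR quasi-likelihood test). With each library left out it was between -0.34 and -0.25, and the unadjusted p of Slc1a1 was under 0.05 in 13 of 16 fits and 0.0634, 0.0633 and 0.0655 without NCD replicate 1, NCD replicate 2 and HFD replicate 1. Slc1a1 shares 2631 exon bases with 4430402I18Rik in antisense orientation, which makes its count uncertain. Slc1a2, the main astrocyte transporter and the most counted of the list, had 2880 ± 181 CPM (SD, n = 3) under NCD and 2730 ± 242 CPM (SD, n = 3) under HFD, with a log2 ratio of -0.08 (SE 0.09), and shares 189 exon bases with the antisense gene Gm13872.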

How the data were processed

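The authors trimmed the QuantSeq reads, aligned them to mm10 with Bowtie2 and counted unique and multiple alignments with Bedtools. The deposited values are raw read counts per gene symbol, with no normalization, and tool versions, annotation and use of strand are not given in the sources used here. Multiple alignments can add counts from similar sequences elsewhere.

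From these counts, edgeR 4.0.16 in R 4.3.3 was fitted to all genes kept by filterByExpr (minimum count 10, minimum total count 15; 13771 genes, with 5165 counted genes left out). Libraries were scaled with TMM, and HFD was compared with NCD by glmQLFit and glmQLFTest without a covariate, with Benjamini-Hochberg adjustment over all genes tested. Standard errors are the log2 fold change over the square root of F, and 95% intervals use the t quantile of the fit. Alternatives changed the tool (DESeq2 1.42.0, or limma 3.58.1 after quantile normalization of log2(CPM + 1)), the scaling (upper quartile, or totals without factors), the filter (none, a minimum of 10 counts in each library, or without genes above 2% of the counts), or the model (robust dispersion, or the replicate number as a block), or dropped a library. Methods were tested on simulated data. The depth, from 6842785 to 9689372 counts, puts 3 counts at 0.316 to 0.432 CPM.

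The members and gene lists were chosen with earlier results of these data known. Named are the 7 members, pathway genes with an unadjusted p under 0.05, the most counted gene of each list, and for each member tested the 2 genes with the highest Pearson's r of log2 CPM (prior count 2). Gnaq, Elfn1, Elfn2, the ON bipolar genes and the marker genes named apart were chosen after their values were seen. Positions, exon lengths and overlaps come from GENCODE vM21 on GRCm38, the assembly of mm10, and promoter windows from RefSeq (GRCm38.p6). Tables and plots used Python 3.11.15, pandas 2.3.3, numpy 2.4.6 and matplotlib 3.10.9.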

Additional observations from a re-analysis of the deposited data

How the results depend on the processing

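Over the 15 alternatives, the number of receptor genes past an adjusted p of 0.05 stayed at 0. The number past an unadjusted p of 0.05 was 1, that of Grm4, and went to 0 with library size alone, with robust estimation and with the replicate block. It ran from 0 to 1 with each library left out. The log2 fold changes of the receptor genes kept their direction in 87 of 90 values. Those that turned were near 0, with ranges over the libraries left out of -0.0407 to 0.038 for Grm5, above 0 without NCD replicate 1 or HFD replicate 2, and -0.2112 to 0.0249 for Grm7, above 0 without HFD replicate 3. Of the named pathway genes, 115 of 120 values kept their direction, and the same ranges were -0.1412 to 0.0348 for Rgs4, -0.337 to 0.0238 for Ncdn and -0.21 to 0.0039 for Gnao1. The order of the genes by level did not change without length scaling.

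Libraries with the same replicate number did not deviate together (r of -0.03, 0.052 and -0.057 over the genes tested, with 2 of 6 libraries closest to their own number), so the numbers were not taken as pairs, although the olfactory bulb markers were highest in replicate 2 of both diets (47.7 and 20.1 CPM). The replicate block gave 0 receptor genes past an unadjusted p of 0.05. Of the genes compared, Grm2 and Grm8 had the fewest counts, at 93 to 222 per library. Their 95% intervals reach down to 0.698-fold and 0.658-fold. The interval of Grm4, which had 186 to 576 counts per library, reaches lower, to 0.576-fold. After adjustment, the genes passing among all those tested numbered 0 in 13 of the 16 fits, 23 without a filter, 2 with DESeq2 and 3 without NCD replicate 3. The cause of these shifts was not tested.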
